A study of Homo sapiens with 6 samples.

Results

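The genes described here are 33 human genes of glucose uptake, glycolysis and the response to low oxygen, taken by symbol from a table of 21512 genes. They form a glucose arm of 20 genes (uptake, glycolytic enzymes, lactate handling) and a hypoxia arm of 13 genes. All 33 symbols were found. Testing required a mean count of 20 or more, and 32 members entered the tests, 20 of the glucose arm and 12 of the hypoxia arm. CA9, the cell surface carbonic anhydrase often used as a hypoxia marker, was the member left out, with 1 to 13 counts per library.

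Glycolysis splits glucose into pyruvate in the cytosol, and lactate dehydrogenase and a monocarboxylate transporter remove the end product as lactate. Under low oxygen the prolyl hydroxylases EGLN1 and EGLN3 no longer mark the subunits HIF-1α and HIF-2α for destruction, and the stabilised factor, paired with ARNT, turns on many genes of both arms. In prostate cancer cells androgen is known to act on glucose metabolism as well, and bicalutamide competes with androgen for the androgen receptor.

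RNA sequencing was compared in 6 libraries, 1 for each of 2 human prostate cancer cell lines under each of 3 treatments lasting 24 h. LNCaP is an established androgen-responsive line. BicR is given in the labels only as prostate cancer cells, without its derivation or number of clones. All cultures, controls included, first spent 3 days in hormone-poor medium (2.5% stripped serum, no phenol red). The ethanol groups received vehicle alone, the DHT groups 10 nM dihydrotestosterone (an androgen) and the bicalutamide groups 1 µM of that antiandrogen. No library has a replicate, so differences within a line carry only counting intervals. The p-values of the fit over both lines take as error the disagreement between these lines across treatments, and measure no spread between replicates.

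Total counts ran from 42162723 to 55917016 per library. The 9 luminal prostate markers were all tested and their summed level was 3895 to 11565 CPM (counts relative to the TMM-scaled library size), against 0.154 to 1.04 CPM for 3 basal markers. The LNCaP ethanol library stood apart: 17 endoplasmic reticulum chaperone genes summed to 27534 CPM there and to 6792 to 9202 CPM in the other 5 libraries. The BicR ethanol and bicalutamide libraries were close to each other, with 0 of 13885 tested genes at least 2-fold different (0%) and 3.08% at least 1.25-fold different in either direction. In bulk RNA, fewer cells of a kind and less RNA per cell cannot be told apart.

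On the length-scaled RPKM scale deposited by the authors, GAPDH was the member with the highest level, at 778 to 1870 RPKM, which was 39.1% to 49.4% of the summed glucose arm. Its enzyme, glyceraldehyde-3-phosphate dehydrogenase, is often used as a reference in expression assays. ENO1, the ubiquitous enolase, followed at 427 to 780 RPKM. DDIT4, an inhibitor of mTORC1 signalling, led the hypoxia arm at 216 to 268 RPKM, in the range of ALDOA (153 to 306 RPKM). At the other end, SLC2A3 stood at 0 to 1.22 RPKM, ADM at 0.171 to 0.711 RPKM and CA9 at 0.00909 to 0.101 RPKM.

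Summed over the glucose arm, the level was 9758 CPM in LNCaP ethanol, 10409 in LNCaP DHT, 7201 in LNCaP bicalutamide, 6890 in BicR ethanol, 5774 in BicR DHT and 6858 in BicR bicalutamide. The lowest LNCaP library was thus above the highest BicR library, with LNCaP DHT at the top and BicR DHT at the bottom. GAPDH (1566 to 3746 CPM) and ENO1 (1188 to 2162 CPM) made up much of these sums. Taken singly, 6 of the 20 members, these 2 among them, had all BicR libraries below all LNCaP libraries, against 16.8% of tested genes. BicR DHT was the lowest of the 6 libraries for 12 of the 20 glucose members (60.0%), against 22.3% of all tested genes. LNCaP DHT was the lowest for 1 (5.0%), against 21.2%. The highest library was LNCaP ethanol for 9 (45.0%, against 20.5%) and LNCaP DHT for 7 (35.0%, against 21.2%). The summed hypoxia arm varied less, from 1228 CPM in BicR ethanol to 1599 CPM in LNCaP ethanol. DDIT4 alone made up much of that sum, at 539 to 729 CPM.

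**Figure D1:**
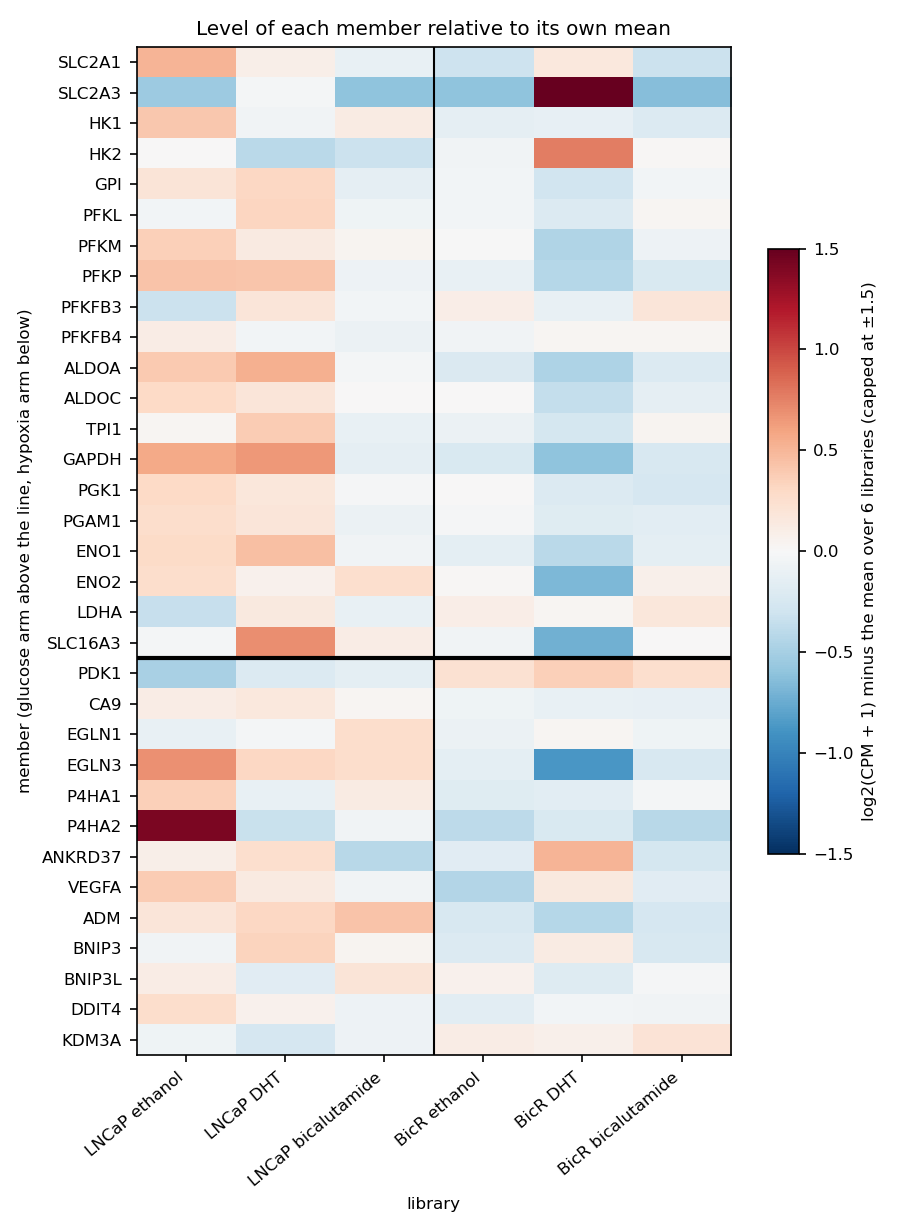
Level of each of the 33 members (rows) in each of the 6 libraries (columns), as log2(CPM + 1) minus the member's own mean over the libraries, on a colour scale capped at ±1.5. Among the glucose arm rows the BicR DHT column is blue except for a few, with SLC2A3 and HK2 the most red, and P4HA2 is red in LNCaP ethanol alone.

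Uptake of glucose and export of lactate run through membrane transporters. SLC2A1, the widely expressed glucose transporter GLUT1, was at 131 CPM in LNCaP ethanol, 98.0 in LNCaP DHT and 84.8 in LNCaP bicalutamide, and at 73.9, 103 and 73.1 CPM in BicR in the same order. DHT was thus below ethanol in LNCaP (ratio 0.747, 95% counting interval 0.721 to 0.775) and above it in BicR (1.39, 1.33 to 1.46). Against bicalutamide, which leaves out the LNCaP ethanol library that stood apart, DHT was higher in both lines. The ratios were 1.16 in LNCaP (1.11 to 1.20) and 1.41 in BicR (1.35 to 1.47).

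SLC2A3, the high-affinity glucose transporter GLUT3 known from neurons, had 3 counts in LNCaP ethanol, 28 in LNCaP DHT and 1 in LNCaP bicalutamide. In BicR it had 1 count under ethanol, 309 under DHT and 0 under bicalutamide, or 7.37 CPM with DHT. Counts were high in BicR DHT, low in LNCaP DHT and near 0 in the 4 libraries without DHT. The ratio of DHT to ethanol was 8.59 in LNCaP (2.65 to 44.2) and 384 in BicR (68.4 to 15204). Against bicalutamide in BicR, DHT was at least 121-fold higher, with the 0 set to a floor of 3 counts. Over both lines the log2 fold change of DHT against ethanol was 6.10 (SE 1.07) and did not pass edgeR's quasi-likelihood test after Benjamini-Hochberg adjustment (adjusted p = 0.115). DHT against bicalutamide gave 7.94 (SE 1.25, edgeR adjusted p = 0.0738). SLC2A3 met the minimum of 20 counts on average only through BicR DHT, since the other 5 libraries held 33 counts in all, so its p-values are given as a description and support nothing. Without BicR DHT the log2 fold change of DHT against ethanol was 2.97, and without another library it ran from 3.21 to 8.61. Leaving out a DHT or ethanol library leaves 1 library of that treatment, so only effect sizes are given. The paralog SLC2A14, nearly identical in sequence, had 4 and 38 counts in the DHT libraries and 0 or 1 elsewhere, so reads of the pair may have been divided between them. Even in BicR DHT, SLC2A3 made up 6.25% of the summed RPKM of SLC2A1 and SLC2A3, and at most 0.488% in the other libraries.

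SLC16A3, the lactate exporter MCT4, was at 3.90 CPM in LNCaP ethanol, 7.15 in LNCaP DHT and 4.41 in LNCaP bicalutamide. In BicR the same treatments gave 3.82, 2.05 and 4.03 CPM. The highest and the lowest value thus both belonged to DHT, in different lines, while the 4 other libraries spanned 3.82 to 4.41 CPM. DHT against ethanol was a ratio of 1.83 in LNCaP (1.54 to 2.19) and 0.537 in BicR (0.412 to 0.694). Over both lines the log2 fold change was 0.09 (SE 0.44, edgeR adjusted p = 1.00).

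The hexokinases trap glucose in the cell by phosphorylating it. HK2, the inducible form, was at 55.4, 41.8 and 44.0 CPM in LNCaP under ethanol, DHT and bicalutamide, and at 53.3, 95.2 and 55.9 CPM in BicR. BicR DHT was the one library above 56 CPM. The ratio of DHT to ethanol was 1.79 in BicR (1.70 to 1.87) and 0.753 in LNCaP (0.712 to 0.797), and under DHT the BicR level was 2.28 times that of LNCaP (2.17 to 2.40). The LNCaP ratio rests on the ethanol library that stood apart. Against bicalutamide, HK2 with DHT was close in LNCaP (41.8 and 44.0 CPM) and higher in BicR (95.2 and 55.9 CPM). HK1, the housekeeping form, did not share the BicR difference, with 126, 128 and 120 CPM there and 185, 134 and 151 CPM in LNCaP. HK2 therefore took 20.4% of the RPKM of the pair in BicR ethanol (19.6% to 21.1%), 31.1% in BicR DHT (30.2% to 32.0%) and 22.0% in BicR bicalutamide, against 14.9% to 15.9% in LNCaP. The additive fit gave HK2 0.23 for DHT against ethanol (SE 0.28, edgeR adjusted p = 1.00) and 0.49 for BicR against LNCaP (SE 0.23, adjusted p = 0.222).

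**Figure D2:**
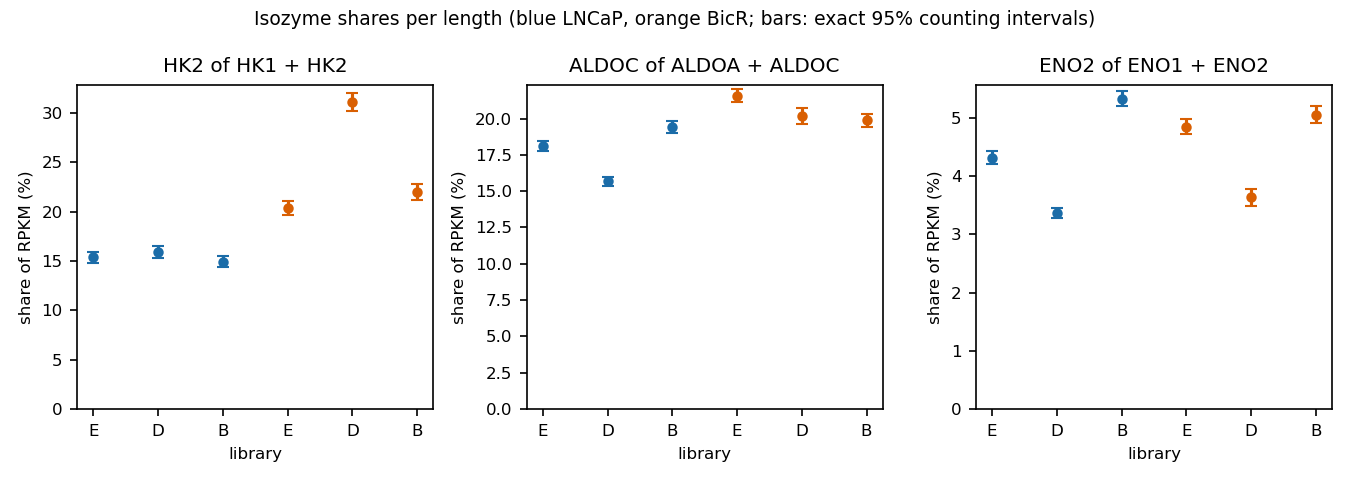
Share of RPKM (%, y axis) taken by HK2, ALDOC and ENO2 within their isozyme pairs in each library (x axis: ethanol E, DHT D, bicalutamide B; blue LNCaP, orange BicR), with exact 95% counting intervals. HK2 reaches 31.1% in BicR DHT, and ENO2 is lowest with DHT in each line (3.37% and 3.63%).

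Start regions of these genes are shown for HK2 and for members of the hypoxia arm whose levels set libraries apart. RefSeq promoter windows (GRCh38.p14, 300 bases, from 250 before to 50 after the start) were found for 30 of the 33 members. They were searched on both strands for the core letters of hypoxia response elements, ACGTG and GCGTG, and for AGAACA, the letters of androgen receptor binding elements. Capitals mark the letters found on either strand. CACGTG reads the same on both strands and counts as ACGTG on each, and the motifs ACGTG and GCGTG can overlap each other. HK2 has 2 windows, and the one shown, at chr2:74834920-74835219 on the plus strand, holds CACGTG and GCGTG. The ANKRD37 window lies at chr4:185396591-185396890 on the plus strand, and those of EGLN3 (chr14:33951025-33951324) and P4HA2 (chr5:132227042-132227341) on the minus strand.
HK2: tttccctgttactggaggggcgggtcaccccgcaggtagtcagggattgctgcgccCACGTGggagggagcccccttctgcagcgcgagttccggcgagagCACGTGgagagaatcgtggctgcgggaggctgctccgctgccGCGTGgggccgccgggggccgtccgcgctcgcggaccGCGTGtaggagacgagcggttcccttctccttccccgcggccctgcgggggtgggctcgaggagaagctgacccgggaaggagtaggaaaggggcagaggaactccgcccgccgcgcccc
ANKRD37: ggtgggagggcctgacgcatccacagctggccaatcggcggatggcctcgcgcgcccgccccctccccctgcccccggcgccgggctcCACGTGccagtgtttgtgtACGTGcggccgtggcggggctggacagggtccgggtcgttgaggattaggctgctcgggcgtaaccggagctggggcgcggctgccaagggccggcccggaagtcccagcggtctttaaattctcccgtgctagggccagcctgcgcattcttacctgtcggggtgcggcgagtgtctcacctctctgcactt
EGLN3: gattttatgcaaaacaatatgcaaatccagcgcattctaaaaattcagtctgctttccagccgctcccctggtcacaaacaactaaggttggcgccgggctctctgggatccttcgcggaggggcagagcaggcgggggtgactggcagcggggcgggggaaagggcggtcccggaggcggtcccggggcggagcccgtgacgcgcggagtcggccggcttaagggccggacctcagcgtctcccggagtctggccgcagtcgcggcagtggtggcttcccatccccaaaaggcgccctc
P4HA2: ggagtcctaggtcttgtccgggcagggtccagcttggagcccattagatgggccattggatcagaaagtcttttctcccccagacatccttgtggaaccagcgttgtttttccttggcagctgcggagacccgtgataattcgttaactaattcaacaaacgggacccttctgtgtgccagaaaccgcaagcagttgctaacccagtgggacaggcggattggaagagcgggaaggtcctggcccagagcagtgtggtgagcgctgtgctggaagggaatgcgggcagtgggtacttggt

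ACGTG or GCGTG stood in 28 of 44 windows of the glucose arm (63.6%) and 10 of 13 windows of the hypoxia arm (76.9%), against 48.4% of 35116 windows of all genes. Windows of 1 gene overlap and are not independent. By gene, 18 of 19 matched glucose members and 9 of 11 matched hypoxia members had such letters in at least 1 window. The share by gene was not worked out for all genes, and a gene with several windows has more chances. These counts by gene therefore cannot be set against the 48.4% of windows. PGAM1, EGLN3 and P4HA2 had none in these windows. AGAACA stood in 4 of 44 and 1 of 13 windows, against 14.8% of all, and ADM was the hypoxia member that held it.

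Below hexokinase the enzymes were lower in BicR DHT than in any LNCaP library for most members. GAPDH was at 3550 CPM in LNCaP ethanol, 3746 in LNCaP DHT and 2168 in LNCaP bicalutamide, and at 2032, 1566 and 2020 CPM in BicR. The lines did not overlap, but LNCaP bicalutamide was close to BicR ethanol. Within LNCaP the ratio of bicalutamide to ethanol was 0.611 (0.606 to 0.615), and under DHT the ratio of BicR to LNCaP was 0.418 (0.414 to 0.422). Over the treatments GAPDH stood at a log2 fold change of -0.72 for BicR against LNCaP (SE 0.26, edgeR adjusted p = 0.134). It has many processed pseudogenes, as do ENO1, PGK1, TPI1, LDHA and PGAM1, so their counts are uncertain where reads were shared.

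ALDOA, the main aldolase outside liver and brain, was likewise highest in LNCaP DHT and lowest in BicR DHT. It was at 1181, 1304 and 883 CPM in LNCaP under ethanol, DHT and bicalutamide and at 776, 656 and 781 CPM in BicR. Its log2 fold change between the lines was -0.59 (SE 0.22, edgeR adjusted p = 0.136). ALDOC, the brain form, took 15.7% to 19.4% of aldolase RPKM in LNCaP and 19.9% to 21.6% in BicR.

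ENO2, the neuronal enolase used as a neuroendocrine marker, was at 116, 101 and 115 CPM in LNCaP and at 97.4, 59.9 and 102 CPM in BicR. BicR DHT was the lowest library, with a ratio to BicR ethanol of 0.615 (0.586 to 0.645). Another 6 neuroendocrine markers, of which 2 had enough counts to be tested, summed to 2.19 to 3.68 CPM per library. The additive fit for DHT against ethanol gave -0.44 (SE 0.21, edgeR adjusted p = 0.914).

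The other enzymes are given by their ranges. Among the subunits of phosphofructokinase, the committing step, PFKM was at 249 to 310 CPM in LNCaP and 177 to 241 CPM in BicR. PFKP was at 87.7 to 125 and 68.4 to 85.9 CPM, and PFKL at 209 to 274 and 189 to 223 CPM. PFKL supplied 32.5% of phosphofructokinase RPKM in LNCaP ethanol and 38.4% to 43.4% in the other 5 libraries. PFKFB3 and PFKFB4, which make the activator of that step, ranged from 18.8 to 27.0 CPM and from 13.9 to 16.1 CPM. GPI (417 to 633 CPM), TPI1 (379 to 593), PGK1 (261 to 384) and PGAM1 (140 to 192) each had their highest value in an LNCaP library. LDHA, the lactate-forming subunit, was at 149, 210 and 175 CPM in LNCaP and at 204, 194 and 214 CPM in BicR. It took 66.4% to 67.98% of LDHA plus LDHB RPKM in LNCaP and 73.7% to 77.1% in BicR.

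Set side by side, DHT and ethanol differed in opposite ways in the 2 lines for several members. In LNCaP 6 of 20 glucose members were at least 1.25-fold higher with DHT on the log2(CPM + 1) scale (SLC2A3, PFKL, PFKFB3, TPI1, LDHA and SLC16A3), against 15.9% of all tested genes. SLC2A1, HK1 and HK2 were at least 1.25-fold lower, 3 of 20 against 14.8%, a share near the background. In BicR the 3 members at least 1.25-fold higher were SLC2A1, SLC2A3 and HK2, against 12.4% of tested genes, again close to it. The 6 at least 1.25-fold lower were PFKM, PFKP, ALDOC, GAPDH, ENO2 and SLC16A3, against 12.6%. The median of the glucose arm was 0.03 in LNCaP and -0.21 in BicR, beside 0.01 and 0.00 for all tested genes. SLC2A3 in BicR was the glucose member that reached 2-fold, where 2.38% of tested genes did. Without members that have near-identical copies the LNCaP median was -0.13. The difference between the lines in these values could not be tested, and LNCaP ethanol, the library that stood apart, enters all the LNCaP values.

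**Figure D3:**
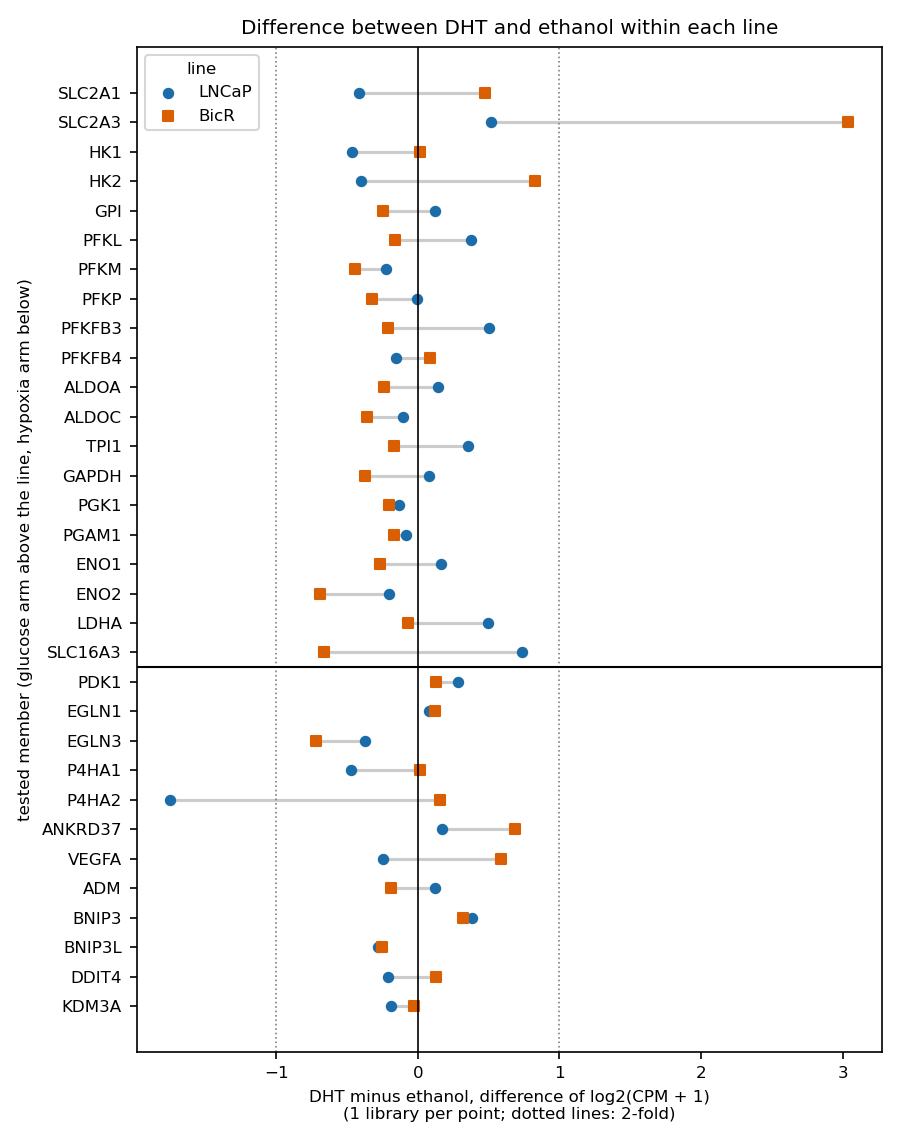
Difference between DHT and ethanol for the 32 tested members, as log2(CPM + 1) (x axis), with LNCaP as blue circles, BicR as orange squares and dotted lines at 2-fold. The line between the points is long for SLC2A3, P4HA2, SLC16A3 and HK2, and the BicR squares of most enzymes from GPI to LDHA lie left of 0.

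Bicalutamide and ethanol differed in LNCaP but hardly in BicR. In LNCaP 9 of 20 glucose members were at least 1.25-fold lower with bicalutamide (SLC2A1, HK2, GPI, PFKP, ALDOA, GAPDH, PGK1, PGAM1 and ENO1), against 20.7% of tested genes, and 0 of 20 were at least 1.25-fold higher, against 21.3%. The arm's median was -0.30 beside 0.01 for all tested genes. With libraries scaled by total counts it was -0.15, where all tested genes had a median of 0.15. In BicR 0 of 32 members reached 1.25-fold, and the arm's median was 0.00. The DHT and bicalutamide comparisons share the ethanol library, which in LNCaP is the one that stood apart. Against bicalutamide in LNCaP, which leaves that library out, DHT was at least 1.25-fold higher for 9 of 20 glucose members, against 21.8% of tested genes, and lower for 0 of 20, against 21.4%, with GAPDH at a ratio of 1.73 (1.71 to 1.74). In BicR that comparison had 4 of 20 at least 1.25-fold lower (PFKM, GAPDH, ENO2 and SLC16A3), against 12.6%, and 3 higher (SLC2A1, SLC2A3 and HK2), against 11.4%. The medians were 0.27 in LNCaP and -0.23 in BicR.

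In the additive fit over both lines 0 of 32 members passed for DHT against ethanol (edgeR), where 0.166% of all tested genes did. An unadjusted p under 0.05 was seen for 2 members (SLC2A3 and EGLN3), beside 782 of 13885 genes. DESeq2 and limma on log2(RPKM + 1) also called 0 members, beside 99 and 15 of all tested genes. For bicalutamide against ethanol edgeR called 0 members and 0% of tested genes, and an unadjusted p under 0.05 was seen for 0 members and 141 genes. The same contrast had 0 genes called by DESeq2 or limma. DHT against bicalutamide gave 0 members with edgeR, beside 0.166% of tested genes. Here 2 members (SLC2A3 and ANKRD37) had an unadjusted edgeR p under 0.05, beside 987 of 13885 genes. DESeq2 called SLC2A3, beside 122 genes in all, and limma called 0 members, beside 14 genes. SLC2A3 met the count filter only through BicR DHT, so its place in these counts supports nothing. The fit takes disagreement between the lines as error, and left 2 residual degrees of freedom.

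The hypoxia arm followed no common course. EGLN3, a HIF prolyl hydroxylase that HIF itself induces, was at 35.0 CPM in LNCaP ethanol, 26.7 in LNCaP DHT and 25.8 in LNCaP bicalutamide. In BicR it was at 19.1, 11.2 and 17.8 CPM. All 3 BicR libraries were below all 3 LNCaP libraries, and BicR DHT was the lowest. EGLN3 was lower in BicR by a log2 fold change of -0.89 (SE 0.19, edgeR adjusted p = 0.0359). The call was lost without LNCaP DHT (-0.70, edgeR adjusted p = 0.0951), LNCaP bicalutamide (-1.06, 0.0895), BicR DHT (-0.70, 0.0823) or BicR bicalutamide (-1.06, 0.0884). With DHT against ethanol it stood at -0.56 (SE 0.22, edgeR adjusted p = 0.815), with ratios of 0.764 in LNCaP (0.712 to 0.820) and 0.586 in BicR (0.524 to 0.655). The LNCaP ratio rests on the ethanol library that stood apart. Against bicalutamide, EGLN3 with DHT was not lower in LNCaP (26.7 and 25.8 CPM) but was lower in BicR (11.2 and 17.8 CPM). EGLN1, the other HIF prolyl hydroxylase among the members, was at 30.7 to 40.2 CPM in LNCaP and 31.2 to 34.0 CPM in BicR.

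P4HA2, a collagen prolyl 4-hydroxylase subunit of the endoplasmic reticulum, was at 96.5 CPM in LNCaP ethanol and 28.1 and 34.1 CPM in LNCaP DHT and bicalutamide. BicR had 26.9, 30.1 and 26.5 CPM. LNCaP ethanol was thus the one high library and the other 5 spanned 26.5 to 34.1 CPM. The ratio to LNCaP ethanol was 0.291 for DHT (0.274 to 0.308) and 0.354 for bicalutamide (0.335 to 0.373). The same library had 8598 CPM of HSPA5, the main chaperone of the endoplasmic reticulum, against 1245 to 1646 CPM elsewhere, and its part in the P4HA2 value was not tested. Over both lines P4HA2 stood at -0.87 for each treatment against ethanol (edgeR adjusted p = 0.903 for DHT and 0.996 for bicalutamide). Without BicR ethanol the values were -1.66 and -1.61, and LNCaP ethanol was then the only ethanol library. Without LNCaP ethanol they were 0.05 and 0.10. Each of these fits leaves 1 ethanol library, so only the effect sizes are given. P4HA1, the other catalytic subunit, was at 50.8 CPM in LNCaP ethanol and 34.7 to 43.1 CPM in the other 5 libraries.

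ANKRD37, a small ankyrin repeat gene induced by HIF-1, was at 1.72, 2.06 and 0.920 CPM in LNCaP and at 1.29, 2.67 and 1.14 CPM in BicR. DHT was the highest library of each line. DHT exceeded bicalutamide by a ratio of 2.24 in LNCaP (1.59 to 3.21) and 2.34 in BicR (1.69 to 3.29), from 48 to 112 counts in LNCaP and 56 to 112 in BicR. The additive fit gave 1.20 (SE 0.38), which did not pass (edgeR adjusted p = 0.567).

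VEGFA, the angiogenic growth factor, was at 216, 182 and 160 CPM in LNCaP and at 123, 184 and 148 CPM in BicR. DHT was below ethanol in LNCaP (0.842, 0.819 to 0.865) and above it in BicR (1.50, 1.45 to 1.55). Compared with bicalutamide, which leaves out the LNCaP ethanol library that stood apart, VEGFA was higher with DHT in both lines. ADM, the vasodilator adrenomedullin, was low throughout, at 1.12, 1.31 and 1.50 CPM in LNCaP and 0.576, 0.382 and 0.570 CPM in BicR, from 16 to 78 counts. All BicR values were below all LNCaP values. ADM stood at -1.36 between the lines (SE 0.34, edgeR adjusted p = 0.0601), and passed without BicR ethanol (-1.57, adjusted p = 0.045).

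PDK1, the kinase that shuts pyruvate dehydrogenase and so keeps pyruvate out of the mitochondria, was at 39.9, 48.7 and 50.5 CPM in LNCaP and at 66.1, 72.3 and 67.1 CPM in BicR. The lines did not overlap. Its log2 fold change was 0.57 (SE 0.15), which did not pass with edgeR (adjusted p = 0.067) and did with DESeq2 (adjusted p = 0.0283). KDM3A, a histone demethylase, was the other hypoxia member higher in BicR without overlap, at 57.8 to 63.2 CPM against 45.7 to 52.1 CPM. BNIP3, a mitophagy receptor, was higher with DHT than with ethanol in LNCaP (1.31, 1.26 to 1.36) and in BicR (1.25, 1.20 to 1.30), and its relative BNIP3L was lower in both (0.822, 0.801 to 0.843, and 0.839, 0.816 to 0.862). Neither passed over both lines (0.36, edgeR adjusted p = 0.974, and -0.27, adjusted p = 1.00).

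Counted as an arm, the hypoxia members with DHT against ethanol in LNCaP had 1 of 12 at least 1.25-fold higher (BNIP3) and 3 lower (EGLN3, P4HA1 and P4HA2), against the 15.9% and 14.8% of all tested genes given above. P4HA2 was the member at least 2-fold lower, where 2.59% of tested genes were 2-fold different. In BicR 2 were higher (ANKRD37 and VEGFA) and 1 lower (EGLN3), against 12.4% and 12.6%. The medians were -0.20 and 0.12. With bicalutamide in LNCaP 5 of 12 were at least 1.25-fold lower (EGLN3, P4HA2, ANKRD37, VEGFA and DDIT4), against 20.7%, and P4HA2 again passed 2-fold, beside 2.60% of tested genes. PDK1 and EGLN1, 2 of 12, were at least 1.25-fold higher, against 21.3%. The median there was -0.12 beside 0.01 for all tested genes. With libraries scaled by total counts it was 0.04, where all tested genes had a median of 0.15.

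**Figure D4:**
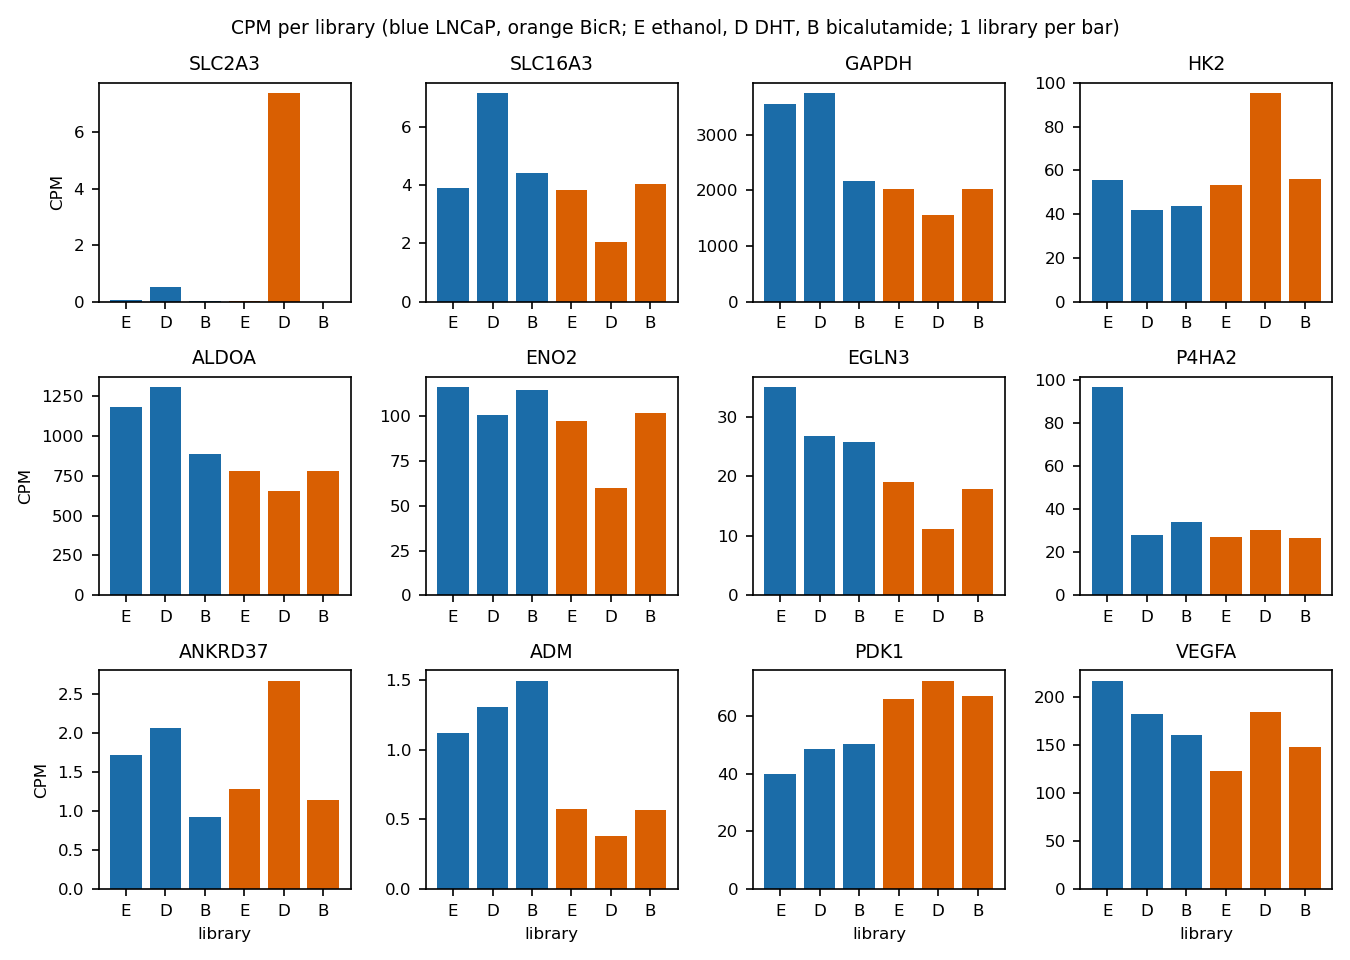
CPM per library (y axis, a scale per panel starting at 0) of the 12 members described in full, 1 bar per library (x axis: ethanol E, DHT D, bicalutamide B; blue LNCaP, orange BicR). SLC2A3 and HK2 peak in BicR DHT, P4HA2 stands at 96.5 CPM in LNCaP ethanol alone, and EGLN3 and ADM are lower in every BicR library than in every LNCaP library.

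Between the lines, 1 of 32 members passed over the 3 treatments with edgeR, EGLN3, and 0 passed as higher in BicR, where 4.42% of all tested genes passed in either direction. At an unadjusted edgeR p under 0.05 there were 8 of 32 members, beside 3445 of 13885 tested genes, a similar share. SLC2A3, which met the count filter only through BicR DHT, was 1 of the 8. DESeq2 called 4 of 32 (ALDOA, EGLN3, GAPDH and PDK1), beside 1490 of 13885, again a similar share. With limma on log2(RPKM + 1) ADM was called, beside 625 of 13885. All 3 BicR libraries were below all 3 LNCaP libraries for 6 of 20 glucose members (HK1, PFKM, PFKP, ALDOA, GAPDH and ENO1) and for EGLN3 and ADM among the 12 hypoxia members, against 16.8% of tested genes. The reverse held for 0 of 20 and for PDK1 and KDM3A, against 16.6%. The values under each treatment follow, and a difference between treatments was not tested. Under DHT 13 of 20 glucose members were at least 1.25-fold lower in BicR, against 27.0% of tested genes, with a median of -0.54. Under ethanol there were 7 of 20, against 25.2%, with a median of -0.27, and under bicalutamide 1 of 20, against 15.6%, with a median of -0.10. For the hypoxia arm the medians were 0.00 under DHT, -0.34 under ethanol and -0.18 under bicalutamide, with 2, 6 and 4 of 12 members at least 1.25-fold lower against the same backgrounds. At least 1.25-fold higher in BicR were 2 glucose members (SLC2A3 and HK2) and 2 hypoxia members (PDK1 and KDM3A) under DHT, against 25.2% of tested genes. Under ethanol they were PFKFB3 and LDHA with PDK1, against 21.9%, and under bicalutamide HK2 with PDK1, against 11.5%. SLC2A3 stood at 2.88 between the lines (SE 0.95, edgeR adjusted p = 0.115), with the filter again met only through BicR DHT. It had the other sign without LNCaP DHT (-1.80) or BicR DHT (-1.81), and was at 3.56 without LNCaP ethanol and 3.57 without BicR ethanol, which took it past that threshold but supports nothing. SLC16A3 had the lowest value of the glucose arm under DHT, a ratio of BicR to LNCaP of 0.287 (0.224 to 0.363).

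**Figure D5:**
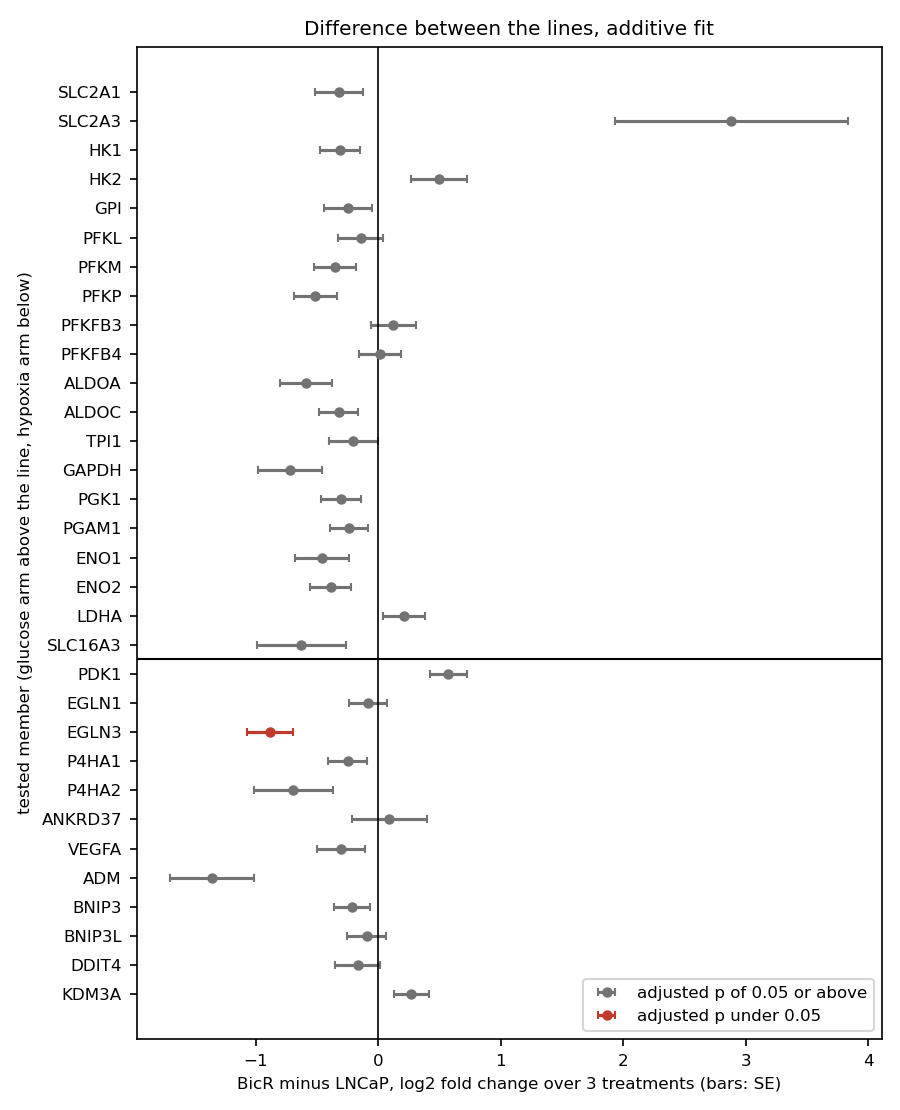
Log2 fold change of BicR against LNCaP over the 3 treatments (x axis) for the 32 tested members with its SE, in red where the edgeR adjusted p was under 0.05. EGLN3 is the red point, ADM lies further left with a wider SE, and most glucose arm points lie left of 0.

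Other genes of these pathways were read from lists. Of 22 other tested genes of glucose handling, 2 that edgeR called between the lines, where 4.42% of all tested genes were called, are described. SLC2A12, the glucose transporter GLUT12, was higher in BicR (log2 fold change 0.96, SE 0.19, adjusted p = 0.0301). SLC16A7, the monocarboxylate transporter MCT2, was lower (-1.94, SE 0.41, edgeR adjusted p = 0.037). SLC2A12 lost its call without any 1 of the DHT or bicalutamide libraries (edgeR adjusted p up to 0.0891), and SLC16A7 without either bicalutamide library (up to 0.155). SLC2A12 was at 12.6, 16.5 and 17.5 CPM in LNCaP and at 25.7, 40.9 and 25.5 CPM in BicR. The table lists pyruvate kinase as PKM2, which was at 1541 to 2080 CPM in LNCaP and 896 to 1263 CPM in BicR.

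Among 28 other hypoxia-induced genes edgeR called 3 between the lines, all lower in BicR, against 4.42% of all tested genes in either direction. LOX, a collagen cross-linking oxidase, had a log2 fold change of -2.70 (SE 0.34, edgeR adjusted p = 0.00539). HMOX1, heme oxygenase 1, stood at -0.92 (SE 0.16, edgeR adjusted p = 0.0219) and RORA, a nuclear receptor, at -1.28 (SE 0.24, adjusted p = 0.0255). All 3 lost their call without either bicalutamide library, and HMOX1 also without LNCaP DHT, with edgeR adjusted p up to 0.0891 for LOX, 0.1002 for HMOX1 and 0.116 for RORA. NDRG1, a gene induced by hypoxia and by androgen, was at 196, 181 and 117 CPM in LNCaP and at 147, 766 and 149 CPM in BicR. It was high in BicR DHT alone and did not pass over both lines (1.21, edgeR adjusted p = 0.838).

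Neither HIF and its regulators (11 tested) nor the genes of pyruvate dehydrogenase control (12 tested) had a call between the lines with edgeR. In each list 1 gene had an unadjusted edgeR p under 0.05, beside 3445 of 13885 tested genes. DESeq2 called TCEB2 of the former and 0 of the latter, beside 1490 of 13885. HIF1A, the oxygen-regulated subunit, was at 131, 122 and 187 CPM in LNCaP and at 128, 125 and 128 CPM in BicR, so LNCaP bicalutamide was the one high library. For the treatments edgeR called 0 genes of these 4 lists in every contrast. DESeq2 called BRP44, the mitochondrial pyruvate carrier subunit now named MPC2, for DHT against each of the other treatments. It called 99 of 13885 tested genes against ethanol and 122 against bicalutamide. BRP44 was at 49.5, 101 and 74.4 CPM in LNCaP and at 78.1, 215 and 56.6 CPM in BicR, highest with DHT in each line (log2 fold change against ethanol 1.28, SE 0.32, edgeR adjusted p = 0.408).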

How the data were processed

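Raw counts per gene symbol and RPKM were taken as deposited by the authors for 6 libraries, per the file headers. Per the labels, total RNA was sequenced on the SOLiD 3 Plus system. The submitters' processing notes name hg19. For the aligner, counter, annotation and use of strand, the entry is not given in the sources used here. Members and lists were chosen with earlier results of these data known.

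Of 21512 genes, 2988 were at 0 in every library, and 13885 with a mean of at least 20 counts were tested. Counts were scaled by TMM and fitted with cell line plus treatment in edgeR 4.0.16 (R 4.3.3, quasi-likelihood test, 2-sided, Benjamini-Hochberg adjustment over all tested genes at 0.05). SE are on the log2 scale. An interaction could not be fitted. Within a line, differences are of log2(CPM + 1), which understates low genes. Ratios carry exact 95% intervals conditional on the summed count, and a library at 0 was placed at a floor of 3 counts. Intervals and floors cover counting error only. The 1.25-fold count and the AGAACA search were added after seeing the data. The additive fit for DHT against ethanol was tested on simulated data in which levels and DHT changes were equal in both lines. Disagreement between the lines, the error of the real fit, was not simulated, nor were the other steps. Members were described in full if they passed the test or differed at least 2-fold within a line (or between the lines under 2 treatments), filled to 6 per arm by their range. Genes of the pathway lists were named if they passed (1 gene is not reported here), and NDRG1, PKM2, HIF1A and BRP44 after their values were seen. DESeq2 1.42.0, limma 3.58.1 on log2(RPKM + 1), other scalings, filters and pseudocounts (0.1 and 5 CPM), and leaving out each library were alternatives.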

Additional observations from a re-analysis of the deposited data

Results flagged for a closer look

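Values whose sign differed between the lines were looked at again. In each case 1 library of each line and treatment stands behind the value, and the difference between the lines was not tested. They are given as BicR minus LNCaP on the log2(CPM + 1) scale. For DHT against ethanol the gap was 1.22 for HK2 (-0.40 in LNCaP and 0.82 in BicR), 0.89 for SLC2A1 (-0.42 and 0.47) and -1.39 for SLC16A3 (0.73 and -0.66). The median of the glucose arm differed by -0.24 and that of the hypoxia arm by 0.32. For bicalutamide against ethanol the medians differed by 0.31 in the glucose arm and 0.12 in the hypoxia arm. For DHT against bicalutamide the gap was -1.16 for GAPDH (0.79 and -0.37) and -1.31 for SLC16A3 (0.59 and -0.72), with medians apart by -0.50 in the glucose arm and 0.14 in the hypoxia arm. The LNCaP ethanol library, which stood apart, enters the first 2 sets of these values and not the third.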

How the results depend on the processing

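No further pairing was possible because there is 1 library per line and treatment, and the cell line is already a term of the fit. Between the lines, members higher in BicR numbered 1 with DESeq2 (PDK1), 2 without the count filter (PDK1 and SLC2A3) and 0 to 1 when a library was left out. Those lower numbered 3 with DESeq2, 2 without the filter (ADM and EGLN3) and 0 to 2 with a library left out. For DHT against ethanol 1 member was higher without the filter (SLC2A3). DHT against bicalutamide had 1 higher (SLC2A3) under DESeq2 or without the filter. Counts with a library left out are not given for the treatment contrasts, since such a fit can leave 1 library of a treatment. With a pseudocount of 0.1 CPM the members at least 2-fold higher with DHT were 1 against ethanol in LNCaP (SLC2A3) and 2 against bicalutamide in LNCaP and in BicR (ANKRD37 and SLC2A3). The cause of the changes with DESeq2, without the filter or with that pseudocount was not tested. SLC2A3 is counted here although it met the filter only through BicR DHT, so its entries support nothing.

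Arm medians over both lines moved when a library was left out: from -0.23 to 0.14 (glucose) and from -0.20 to 0.036 (hypoxia) for DHT against ethanol, from -0.33 to 0.059 and from -0.14 to 0.070 for bicalutamide against ethanol, and from -0.18 to 0.29 (glucose) for DHT against bicalutamide. Within LNCaP the glucose median with DHT was -0.13 without members that have near-identical copies. With bicalutamide it was -0.15 under total counts, and the hypoxia median was 0.036 under total counts, -0.23 with PDK1 in the glucose arm and -0.23 without the members with copies. Total counts moved the median of all tested genes in that comparison from 0.01 to 0.15, a shift like that of both arms. The values with a library or members left out rest on fewer samples or members. EGLN3 between the lines was -0.70 with limma on log2(RPKM + 1) (adjusted p = 0.053). A tally under the alternatives took the members described in full between the lines and only a chosen few of them, SLC2A3 included, in the treatment contrasts. Of these 210 values, 184 kept their side of the threshold (9 of them with the other sign, passing in neither fit), 21 newly passed and 5 no longer passed. Some of the fits leave 1 library of a treatment, so the tally is a description only. SLC2A3, ADM, ANKRD37 and CA9 rest on few counts in some libraries, so their ratios are imprecise.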
